A study of Mus musculus with 8 samples.

Results

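Tbx2, Tbx3, Tbx4 and Tbx5 are 4 T-box transcription factors of the airway mesenchyme, and they were chosen by name, as 4 of the 23478 gene symbols listed in each of 2 count tables. T-box factors bind DNA through the domain that gives the family its name. Tbx2 and Tbx3 mostly act as repressors and keep mesenchymal cells dividing, while Tbx4 and Tbx5 mostly act as activators and are known from limb buds, heart and lung. In the embryonic trachea and lung all 4 are made in mesenchyme around the epithelial tube, and loss of Tbx4 and Tbx5 together in mice is known to impair lung budding and the tracheal cartilage rings.

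RNA was sequenced from E13.5 mouse embryos in 8 libraries. Whole tracheas came from 1 Wls flox/flox, ShhCre+ sample and from 2 Wls flox/flox control samples without Cre. Wls carries Wnt proteins to the cell surface, and ShhCre acts in the airway epithelium. Sorted tracheal cells came from 2 samples with the genotype Bmp4flox/flox, Foxg1Cre+, γSMAeGFP and from 3 Bmp4flox/flox, γSMAeGFP controls. All 5 carry floxed Bmp4 and the muscle reporter, and the labels do not say in which tracheal cells Foxg1Cre acts. Epithelial cells (EPCAM antibody) and muscle cells (GFP) were sorted away, and the labels call the remainder chondroblasts. Nothing in the labels says whether libraries of 1 group came from separate embryos, so p-values measure only how far these libraries differ, a spread that may be technical.

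Depth was 12964287 and 15462780 counts in the Bmp4 mutants, 48876948 to 55492747 in their controls and 24596836 to 31399982 in the tracheas. The targeted genes followed the labels: Bmp4 stood at 24.1 and 32.2 CPM (counts scaled to the size of the library) in the Bmp4 mutants against 99.2 to 124 CPM, and Wls at 65.7 CPM in the Wls mutant against 146 and 153 CPM. Wls was also lower in the Bmp4 mutants, at 59.4 and 95.5 CPM against 136 to 202 CPM. In the deposited counts its drop was thus not particular to the Wls mutant. After subtraction of the background described below, its log2 fold change in the Bmp4 mutants was -0.70 and did not pass edgeR's test (adjusted p = 0.15). Cartilage markers summed to between 2850 and 5900 CPM in the sorted controls, and mesenchyme and fibroblast markers to between 7640 and 11500 CPM. The largest of the latter in control 1 were Col3a1, Col1a2 and Col1a1 (2420, 2050 and 1990 CPM). That sum does not tell fibroblasts from other mesenchyme. Airway epithelium markers summed to at most 39.6 CPM there, with the basal cell keratin Krt5 at 0 in all 3 controls. The Bmp4 mutants carried a background in genes silent in the controls, pooled to 15.4 and 14.1 counts per kilobase of exon. Controls had at most 0.0486, a value set by choosing genes with few control counts. Over all genes, 919 and 955 had no count in the mutants, against 5573 to 6080 in the controls. The background was taken as even, though silent genes differed. Tbx19 and T had 1.67 and 0.785 CPM per kilobase of exon in mutant 1, and 0.724 and 1.47 in mutant 2. Mutant 1 also had a red cell share of 118000 CPM over 8 erythroid markers, against 1120 CPM in mutant 2 and 32.4 to 9820 CPM in the controls.

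The 4 genes form 2 neighbouring pairs in the genome (GRCm38, the assembly also called mm10; GENCODE M21). Tbx2 (ENSMUSG00000000093.6, chr11:85832551-85841948) and Tbx4 (ENSMUSG00000000094.12, chr11:85886422-85916097) lie 44.5 kb apart on chromosome 11. Tbx3 (ENSMUSG00000018604.18, chr5:119670669-119684724) and Tbx5 (ENSMUSG00000018263.11, chr5:119832668-119885219) lie 147.9 kb apart on chromosome 5. All 4 are on the plus strand, and their exons add up to 3.63, 5.21, 3.40 and 3.94 kb for Tbx2, Tbx3, Tbx4 and Tbx5. Because relatives with near-identical stretches can share reads, the longest exact run common to the transcripts of each pair was searched for. It was 23 bases for Tbx4 and Tbx5, 20 for Tbx2 and Tbx5, 19 for Tbx3 and Tbx5, 17 for Tbx3 and Tbx4, 14 for Tbx2 and Tbx3 and 12 for Tbx2 and Tbx4. The read length is not given in the sources used here. The run of Tbx3 and Tbx5 is mostly 1 base repeated and is not wholly coding. The 3 runs printed here lie in exons that encode the T-box domain and show how far the conserved core is alike at the level of bases:
Tbx4 and Tbx5: cagctgaaaattgagaacaaccc
Tbx2 and Tbx5: atcctgaactccatgcacaa
Tbx3 and Tbx4: atgcataagtaccagcc
The first lies in coding exon sequence of Tbx4 (exon 7 of 9, chr11:85911942-85911964) and Tbx5 (exon 7 of 9, chr5:119853535-119853557). The next is in exon 3 of 7 of Tbx2 (chr11:85835798-85835817) and exon 6 of 9 of Tbx5 (chr5:119844968-119844987). The last is in exon 3 of 7 of Tbx3 (chr5:119675573-119675589) and exon 6 of 9 of Tbx4 (chr11:85911122-85911138).

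All 4 genes stood at lower mean levels after loss of epithelial Wls and after loss of Bmp4. In the single Wls mutant trachea each of them passed edgeR's test, with levels at 38.9% to 47.4% of the control mean, where 2.42% of all 15815 tested genes were called lower. In the Bmp4 mutant cells Tbx2, Tbx3 and Tbx5 passed it, at 29.9%, 37.9% and 40.5% of the control mean, and Tbx4 did not, at 48.8%. There 15.6% of all 21665 tested genes were called lower. After a background in the mutant libraries, taken as even over exon length, was subtracted, only Tbx5 passed, at 54.4% of the control mean. Tbx2 then stood at 37.8% (adjusted p = 0.065) and Tbx3 at 50.8% (adjusted p = 0.16). In bulk samples fewer cells that make a gene and less RNA per cell cannot be told apart.

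**Figure D1:**
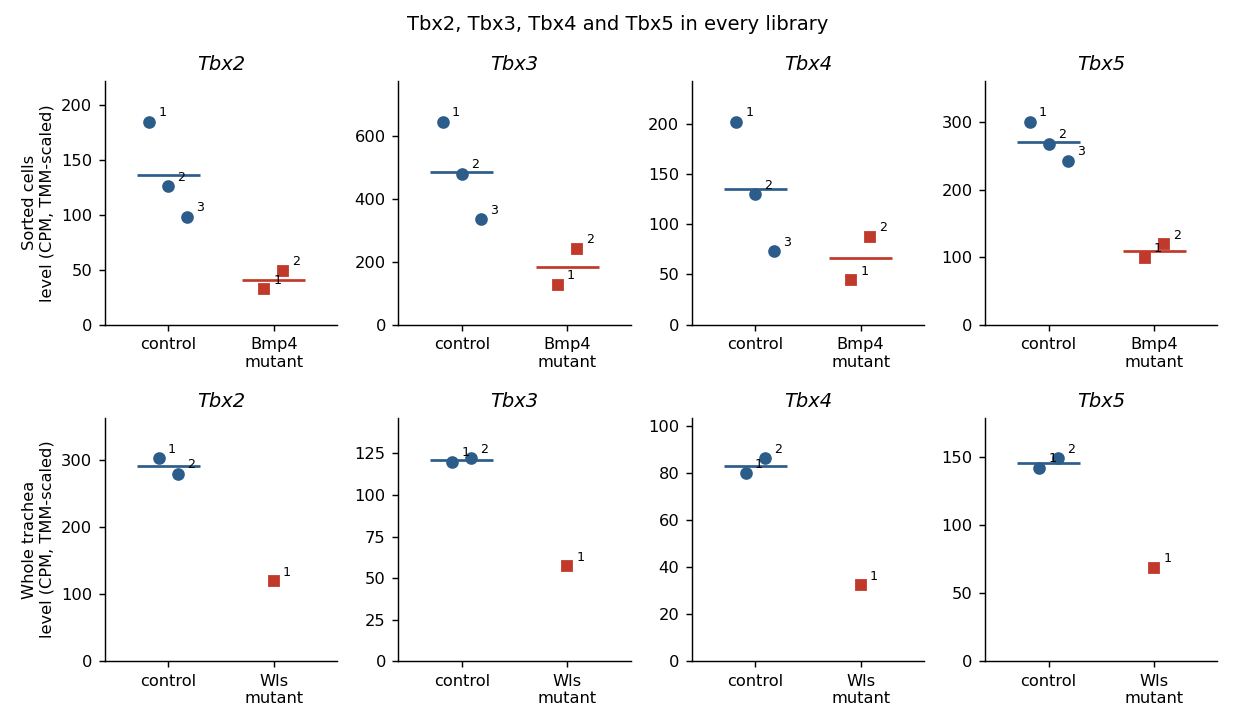
Level of each gene (y axis, CPM with TMM scaling) in every library, for sorted cells (top row) and whole tracheas (bottom row). Circles are controls, squares are mutants, small digits are replicate numbers and lines are group means where a group has more than 1 library. The Wls mutant lies under both controls in every lower panel, and in the upper row only the Tbx4 panel has a mutant above a control.

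In the Wls comparison both repressors fell. Tbx2 measured 303 and 280 CPM in the 2 control tracheas and 120 CPM in the Wls mutant. The mutant value lay far under both controls, which differed little from each other, and the log2 fold change was -1.27 ± 0.20 (SE, adjusted p = 1.3e-07). Tbx3, its close relative, measured 120 and 122 CPM in controls and 57.3 CPM in the mutant, a log2 fold change of -1.08 ± 0.18 (adjusted p = 2.2e-06).

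The activators fell by similar amounts in the same trachea. Tbx4, which in lung and trachea is restricted to mesenchyme, measured 79.8 and 86.1 CPM in controls and 32.3 CPM in the mutant (log2 fold change -1.36 ± 0.19, adjusted p = 2.6e-09). Tbx5, best known for its part in heart and forelimb, measured 142 and 149 CPM in controls and 68.8 CPM in the mutant (-1.08 ± 0.18, adjusted p = 2.6e-06). For each of the 4 genes the single mutant stood further from the nearest control than the controls stood from each other.

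All 4 T-box genes were thus among the 2.42% of tested genes called lower in the tracheas, where 1.9% were called higher. The mutant was under both controls for 37.6% of tested genes, so that order alone is common. With 1 mutant library the test had 1 residual degree of freedom and assumed that the mutant varies like the controls. Genes were therefore also selected by size, with no test: the mutant had to differ by at least 1 in log2 CPM and to lie outside the control range by more than that range, at a mean of 3 or more in log2 CPM. By this rule 0.716% of 10897 genes were lower, and Tbx2, Tbx3, Tbx4 and Tbx5 all met it. Cartilage markers summed to 721 CPM in the mutant against 1910 and 1610 CPM, airway epithelium markers to 969 CPM against 712 and 575 CPM, and smooth muscle markers to 2740 CPM against 1990 and 1650 CPM. Heart muscle markers summed to 564 CPM against 1040 and 726 CPM, with 4 of 8 called lower, and skeletal muscle markers to 177 CPM against 72.3 and 58.5 CPM, with 4 of 8 called higher. The part of these shifts in the T-box values was not tested.

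After loss of Bmp4, Tbx2 showed the largest log2 fold change of the 4. It measured 185, 126 and 98.3 CPM in the 3 sorted controls and 32.6 and 49.1 CPM in the 2 mutants. Both mutants were under every control, and the log2 fold change was -1.74 ± 0.31 (SE, adjusted p = 0.0038). Tbx3, the highest of the 4 per kilobase of exon in the sorted controls, measured 644, 479 and 334 CPM in controls and 127 and 241 CPM in mutants, again without overlap (-1.40 ± 0.36, adjusted p = 0.015).

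Among the activators, Tbx5 had the tightest values. Controls measured 301, 268 and 243 CPM and mutants 99.6 and 119 CPM, a gap wider than the spread within either group, with a log2 fold change of -1.30 ± 0.18 (adjusted p = 0.0033). Tbx4 measured 202, 130 and 73.2 CPM in controls and 44.3 and 87.7 CPM in mutants. Here mutant 2 exceeded control 3, so the groups overlapped, and the log2 fold change of -1.03 ± 0.45 had a 95% confidence interval from -2.09 to 0.03 (adjusted p = 0.088). Its call depended on single libraries: without control 3 the log2 fold change was -1.33 (adjusted p = 0.023), without control 1 it was -0.62 (adjusted p = 0.20) and without mutant 1 it was -0.63 (adjusted p = 0.39). Without mutant 1, the library with the erythroid share, Tbx3 no longer passed either (-1.02, adjusted p = 0.086), while Tbx2 (-1.49, adjusted p = 0.049) and Tbx5 (-1.19, adjusted p = 0.039) did.

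With 15.6% of all genes called lower in this comparison, the 3 calls of 4 stand against a broad background. The split of calls moved with the scaling: 3381 genes were lower and 8507 higher with TMM, and 1247 lower and 9139 higher with library totals. Both mutants were under all 3 controls for 25.6% of tested genes. By size the 4 genes stood near the bottom of that distribution in the deposited counts: 0.365% of all tested genes had a log2 fold change as low as that of Tbx2, 0.78% as low as that of Tbx3, 1.0% as low as that of Tbx5 and 2.45% as low as that of Tbx4. After background subtraction these shares were larger, at 0.826% for Tbx2, 2.47% for Tbx3, 3.33% for Tbx5 and 6.84% for Tbx4, of 10293 genes. Both comparisons called 116 of 15798 shared tested genes lower (0.734%), and Tbx2, Tbx3 and Tbx5 were among them. The comparisons share no library.

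Genes above 3 times the background of the mutants, taken as even, had a median log2 fold change of -0.35 in the deposited counts. All genes tested had a median of 0.53. By this estimate the background made up 12.5% and 5.91% of the Tbx2 counts of mutants 1 and 2. It made up at most 8.64% of those of the other 3 T-box genes. When the background was subtracted and only genes above it were scaled and tested, the log2 fold changes were -1.40 ± 0.31 for Tbx2 (adjusted p = 0.065), -0.98 ± 0.35 for Tbx3 (adjusted p = 0.16), -0.64 ± 0.45 for Tbx4 (adjusted p = 0.43) and -0.88 ± 0.15 for Tbx5 (adjusted p = 0.044). Every direction stayed negative, and only Tbx5 passed, in a test that called 0.855% of 10293 genes lower. That call was at the edge: the adjusted p of Tbx5 was 0.049 with longer exon models, 0.053 with a background rate 1.5 times as high, and between 0.06 and 0.13 when any 1 library was left out. With the scaling taken from genes above the background but no subtraction, the log2 fold changes were close to these, and Tbx2 (-1.40, adjusted p = 0.0046), Tbx3 (-1.07, adjusted p = 0.029) and Tbx5 (-0.96, adjusted p = 0.0024) passed.

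**Figure D2:**
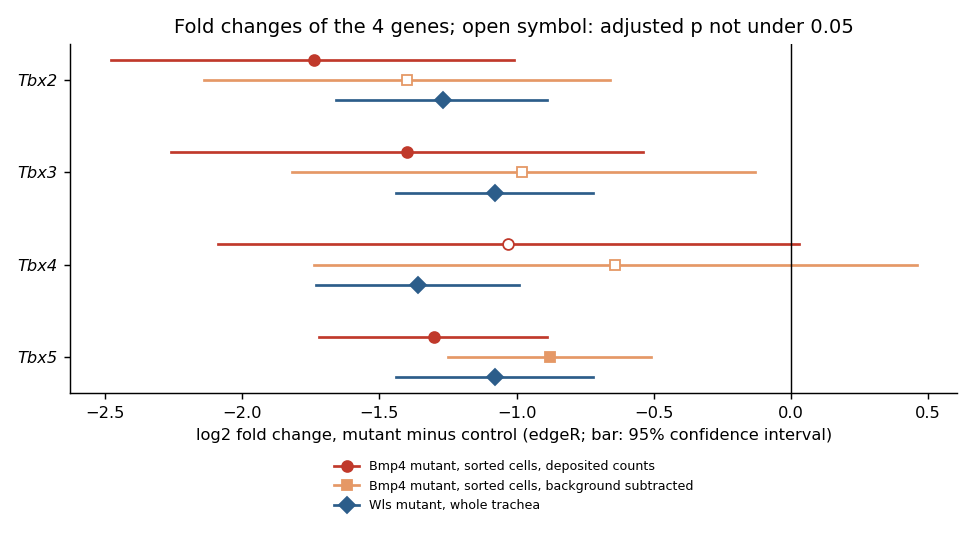
Log2 fold change of each gene (x axis, mutant minus control, edgeR) with its 95% confidence interval, for the Bmp4 mutant cells with deposited counts, the same cells after background subtraction, and the Wls mutant trachea. Filled symbols passed an adjusted p of 0.05. All 12 estimates are negative, and the intervals of Tbx4 in the sorted cells are the ones that reach past 0.

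Levels of different genes were compared per kilobase of exon. In the sorted controls Tbx3 was highest at 93.3 ± 29.8 CPM per kb (SD, n = 3), followed by Tbx5 at 68.6 ± 7.36, Tbx4 at 39.7 ± 19.0 and Tbx2 at 37.7 ± 12.2 CPM per kb. Tbx3 was above Tbx5 in all 3 libraries, though in control 3 only by 64.1 against 61.6 CPM per kb. Tbx4 and Tbx2 did not differ beyond their spread, since Tbx4 was higher in controls 1 and 2 and Tbx2 in control 3. In the mutants the first places changed between libraries: mutant 1 had Tbx5 at 25.3 and Tbx3 at 24.4 CPM per kb, and mutant 2 had Tbx3 at 46.2 and Tbx5 at 30.3 CPM per kb. Tbx2 was lowest in both mutants, at 8.98 CPM per kb in mutant 1.

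Whole tracheas had another order. Tbx2 led at 83.6 and 77.2 CPM per kb in the controls, then came Tbx5 at 36.0 and 37.7 CPM per kb. Tbx4 at 23.5 and 25.3 and Tbx3 at 23.0 and 23.5 CPM per kb lay side by side. Sorted cells were depleted of muscle and epithelium and were amplified with another kit, so the tables are set side by side without a test. The mutant trachea kept Tbx2 and Tbx5 in front, at 33.2 and 17.5 CPM per kb, with Tbx3 at 11 and Tbx4 at 9.49 CPM per kb.

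The balance between the genes was followed as the log2 ratio of 2 genes' counts within a library, which does not depend on library scaling. In the sorted cells the ratio Tbx2/Tbx4 was -0.13, -0.04 and 0.43 in controls and -0.44 and -0.84 in mutants, a difference of -0.73 without overlap. Ratios of Tbx2/Tbx3 and Tbx3/Tbx4 also did not overlap between groups, with differences of -0.30 and -0.43. For Tbx2/Tbx5, Tbx3/Tbx5 and Tbx4/Tbx5 the groups overlapped, with differences of -0.42, -0.12 and 0.31. After background subtraction the groups of Tbx2/Tbx5 did not overlap (-0.51, exact permutation p = 0.2). With 3 against 2 libraries the two-sided exact permutation test cannot go below 0.2, which the 3 ratios without overlap reached (adjusted over 6 pairs 0.4), so none of these shifts passed a test.

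In the tracheas the ratio Tbx3/Tbx5 hardly moved, at -0.24 and -0.28 in controls and -0.26 in the mutant. The Tbx4/Tbx5 ratio was -0.83 and -0.79 in controls and -1.09 in the mutant. Tbx3/Tbx4 lay above its control range, at 0.59 and 0.50 in controls and 0.83 in the mutant, whereas in the sorted cells it lay under its control range, at 1.67, 1.88 and 2.19 in controls and 1.52 and 1.46 in mutants. Tbx4 thus had the largest log2 fold change of the 4 in the Wls mutant and the smallest in the Bmp4 mutants. That contrast was not tested.

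**Figure D3:**
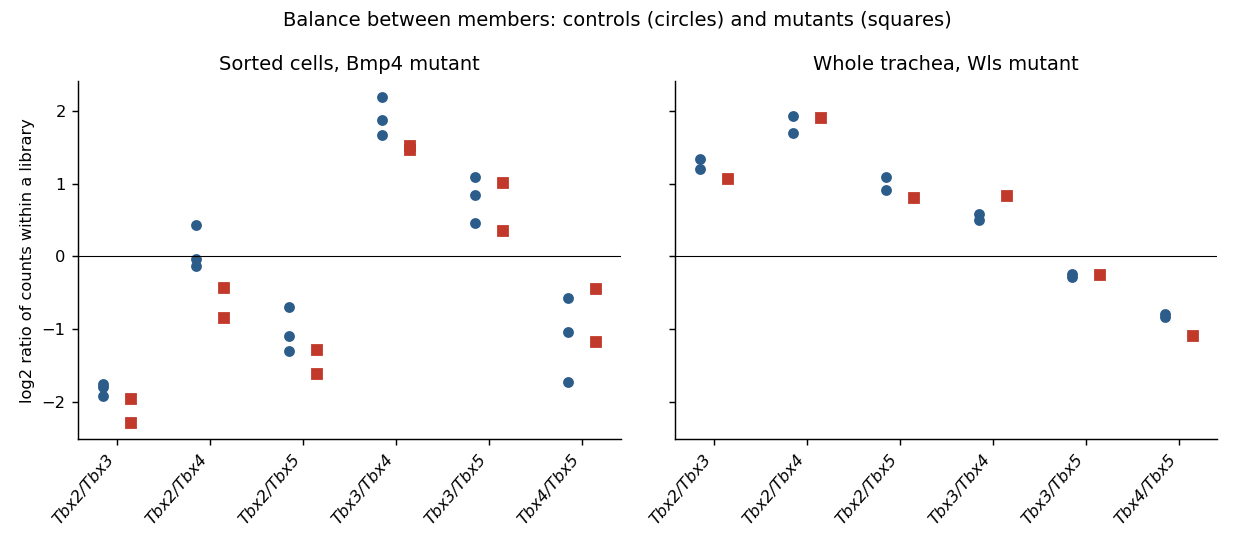
Log2 ratio of the counts of 2 genes within a library (y axis) for the 6 pairs, in sorted cells (left) and whole tracheas (right). Circles are controls and squares are mutants. In the left panel Tbx2/Tbx3, Tbx2/Tbx4 and Tbx3/Tbx4 have mutants under all controls, and in the right panel the mutant stays within 0.28 of the control mean for every pair.

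Across the 8 libraries, each expressed as log2 CPM minus the control mean of its table, some genes had nearly the same pattern as a T-box gene. Likeness was measured as the root mean square difference over the 8 values, among 10155 genes with a mean log2 CPM of at least 3 in both tables. Nearest to Tbx2 were Fam101a, a regulator of the actin crosslinker filamin (0.11), Negr1, a cell adhesion molecule (0.149), and Plekhg1 (0.152). For Tbx3 they were the interferon-inducible GTPase Iigp1 (0.089), Fam101a (0.096) and the glutamate transporter Slc1a3 (0.133). Tbx4 had Scube1, which encodes a secreted and membrane-bound glycoprotein (0.128), Arhgef26 (0.257) and the BMP-binding protein gene Bmper (0.267). Closest to Tbx5 were Sox6, a partner of Sox9 in cartilage (0.118), the dynamin gene Dnm1 (0.121) and the formin Fhod1 (0.126). Between the 4 genes themselves the differences were 0.19 for Tbx2 and Tbx3, 0.24 for Tbx3 and Tbx5, 0.27 for Tbx3 and Tbx4, 0.28 for Tbx2 and Tbx5, 0.39 for Tbx4 and Tbx5 and 0.41 for Tbx2 and Tbx4. All genes of a library share its depth and background, so likeness is a description only.

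Per kilobase of exon, each of the 13 other T-box genes stood under all 4 in every library except the Wls mutant. There Tbx1, at 11.9 CPM per kb, was above Tbx3 (11) and Tbx4 (9.49). By this measure the 4 genes held 91.9% to 96.7% of the summed T-box level in the sorted controls and 86.1% in both control tracheas. They held 71.8% and 84.8% in Bmp4 mutants 1 and 2 and 70.5% in the Wls mutant. After background subtraction the shares were 80.5% and 90.3% in the Bmp4 mutants, and still 91.9% to 96.7% in their controls. Of 13 other T-box genes tested in sorted cells, 7 were called higher, 0 lower and 6 did not pass, beside 39.3% of all tested genes called higher. The 7 were Tbx10, Tbx15, Tbx19, Tbx22, Eomes, Tbr1 and the brachyury gene T, each at no more than 1.54 CPM in any control, and none of them reached the background limit for a test after subtraction. The median log2 fold change of all 13 was 3.06 against 0.53 for all genes. Mga, which pairs with Max, measured 110, 102 and 125 CPM in controls and 79.2 and 105 CPM in mutants (log2 fold change -0.28, adjusted p = 0.21). Tbx18, a gene of mesenchyme around tubular organs, measured 3.07, 26.4 and 20.6 CPM in controls and 26.7 and 16.8 CPM in mutants (0.38, adjusted p = 0.68). Tbx1, Tbx6, Tbx20 and Tbx21 also did not pass, with log2 fold changes of 0.47, 1.53, 0.93 and 3.06.

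In the tracheas 8 of the 13 could be tested, of which 1 was called lower and 0 higher, beside 2.42% and 1.9% of all genes. Their median was 0.22 against -0.01 for all genes. Tbx20, a heart factor, fell from 20.5 and 18.2 CPM to 11.9 CPM (log2 fold change -0.70 ± 0.22, adjusted p = 0.039). The part of the lower heart muscle markers of that library was not tested. Tbx1, which is made in pharyngeal tissue and muscle precursors, stood at 31.8 CPM against 24.8 and 22.1 CPM (0.44, adjusted p = 0.20). Tbx18 (0.36), Tbx15 (0.83), Tbx6 (-0.69), Tbr1 (0.49), T (0.09) and Mga (-0.15) did not pass.

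**Figure D4:**
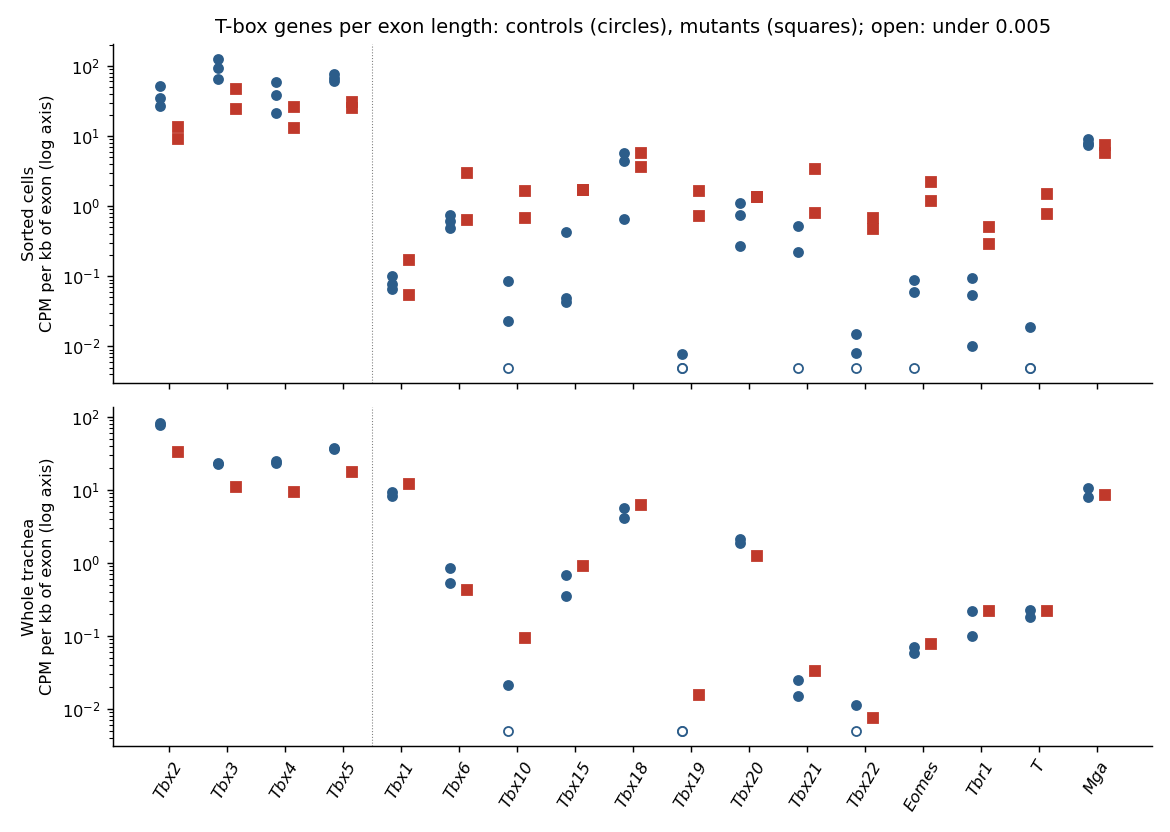
Level per kilobase of exon (log axis, CPM per kb) of the 4 genes, left of the dotted line, and of 13 other T-box genes, for sorted cells (top) and whole tracheas (bottom). Circles are control libraries, squares are mutants, and open symbols at the lower edge stand for values under 0.005. In the sorted cells the mutants lie above the controls in several silent genes, such as T and Tbx19, while the 4 abundant genes lie lower.

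Neighbouring genes were compared with the pairs. The long noncoding RNA gene 2610027K06Rik lies 226 bases from Tbx2 on the other strand, in RefSeq. In the Wls mutant it fell with Tbx2, from 3.85 and 4.69 CPM to 1.43 CPM (log2 fold change -1.57 ± 0.43, adjusted p = 0.011). In the sorted cells it measured 10.8, 9.68 and 8.54 CPM in controls and 15.2 and 10.4 CPM in mutants (0.40, adjusted p = 0.32), with a confidence interval from -0.35 to 1.16 that does not reach the value of Tbx2. Rbm19, a ribosome biogenesis gene and the next listed gene beyond Tbx5, at 231.3 kb, had log2 fold changes of -0.38 (adjusted p = 0.15) in the sorted cells and -0.25 (adjusted p = 0.59) in the tracheas. Tbx3os2, next to Tbx3 on the other strand, and Gm16063 were at or under 4.84 CPM in every control and did not pass in the sorted cells (0.37 and 1.35). Gm20759, beyond Tbx4, had no count in any control, and its 2.34 and 2.60 CPM in the mutants were 0 after background subtraction. Whether the counting used strand is not given, so reads of Tbx3 and of the overlapping antisense gene Tbx3os1, not analysed here, cannot be told apart. In RefSeq the long noncoding RNA gene Gm5563, also not analysed here, overlaps Tbx5.

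For Tbx4 the reference promoter table (RefSeq, GRCm38.p6) holds 1 window, 250 bases before to 50 after an annotated start at position 85896765 inside the gene. It is shown as the only window of the 4 genes in that table, chr11:85896515-85896814 on the plus strand, with a GC content of 59.0%:
Tbx4: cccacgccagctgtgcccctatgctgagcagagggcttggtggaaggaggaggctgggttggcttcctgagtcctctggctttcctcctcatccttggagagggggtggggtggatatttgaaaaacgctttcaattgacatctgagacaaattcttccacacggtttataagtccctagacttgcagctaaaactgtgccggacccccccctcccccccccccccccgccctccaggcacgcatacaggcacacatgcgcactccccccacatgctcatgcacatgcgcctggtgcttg
On both strands it was searched for AGGTGTGA (the T-box element), for GGTGTGA (its core, contained in the first), for GGCGCC (a SMAD1/5 site) and for CTTTGAT (a TCF/LEF site). None of these letters occur in the window, so no base is in capitals. Among all 32851 promoter windows of that table, 1.28%, 3.98%, 11.9% and 3.73% hold them.

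Genes that other work links to Tbx4 and Tbx5 in airway mesenchyme differed among themselves. Of 16 such genes in the sorted cells, 5 fell and 1 rose, where 15.6% of all genes were called lower and 39.3% higher, with a median log2 fold change of -0.54 against 0.53 for all genes. The largest changes were those of the heart and foregut factor Nkx2-5 (-3.99, from at most 5.69 CPM), the deleted gene Bmp4 (-2.03), the cartilage regulator Sox9 (-1.99), the Hedgehog effector Gli1 (-1.46) and Fgf10 (1.36). Fgf10, the growth factor of lung budding that Tbx5 is known to activate, measured 13, 8.36 and 7.42 CPM in controls and 15.0 and 34.4 CPM in mutants (adjusted p = 0.028). After background subtraction, with 0.855% of all genes called lower, 2 of 14 tested genes passed, both lower, Bmp4 (-1.66) and Gli1 (-1.26), and Fgf10 was at 1.56 (adjusted p = 0.12).

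In the Wls mutant 5 of these 16 genes fell and 3 rose, beside 2.42% and 1.9% of all genes, with a median of -0.13 against -0.01. Nkx2-5 fell by 2.01 on the log2 scale, Sox9 by 1.28 and Osr2, a transcription factor of developing skeleton and palate, by 1.15. Foxf2, a forkhead factor of gut mesenchyme, rose by 1.89, from 9.11 and 8.61 CPM to 32.8 CPM, and Wnt2, a mesenchymal Wnt ligand, by 1.32, from 8.70 and 10.6 CPM to 24.2 CPM. Bmp4 itself measured 50.7 and 49.0 CPM in controls and 30.8 CPM in the mutant (-0.69 ± 0.19, adjusted p = 0.011). Fgf10, given here because it passed in the sorted cells, measured 9.26 and 8.95 CPM in controls and 9.05 CPM in the mutant (log2 fold change -0.01, 95% confidence interval -0.52 to 0.51).

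Genes that Tbx2 and Tbx3 repress in other tissues mostly did not pass. In the sorted cells 2 of 8 were called higher, the cell cycle inhibitor gene Cdkn2a and the epithelial cadherin gene Cdh1. That share is below the 39.3% of all genes called higher, and the list's median was 0.10 against 0.53. Cdkn2a reached at most 0.679 CPM in a mutant, and Cdh1 measured at most 2.80 CPM in controls and 23.1 and 14.6 CPM in mutants. After background subtraction neither was tested, and none of the 5 tested genes passed. The gap junction gene Gja1, the most abundant of the list, measured 218, 190 and 180 CPM in controls and 116 and 199 CPM in mutants (-0.32, adjusted p = 0.29). The Wnt inhibitor Frzb was at -0.13 (adjusted p = 0.90) and Shisa3 at 1.52 (adjusted p = 0.091). In the Wls mutant 1 of 7 tested genes rose, with a median of 0.23 against -0.01, the cell cycle inhibitor Cdkn1b, from 36.4 and 28.0 CPM to 49.4 CPM (0.62 ± 0.18, adjusted p = 0.023). Over all genes 1.9% were called higher in that comparison. The most abundant others of the list, Gja1 (-0.16), Cdh1 (0.23), Ndrg1 (-0.28) and Cdkn1a (0.40), did not pass.

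Response genes of the signals that were removed give the setting of these values. Of 12 BMP response genes in the sorted cells 8 fell and 0 rose (median -1.25), where 15.6% of all genes were called lower and 39.3% higher (median 0.53), led by Msx2 (-3.49), Id3 (-1.40), Atoh8 (-1.34), Id1 (-1.31) and Id4 (-1.27). After background subtraction 1 of 8 tested passed, Id3 (-0.92, adjusted p = 0.045), with a median of -0.89 against -0.01, beside 0.855% of all genes called lower. In the Wls mutant 3 of these 12 fell and 0 rose (median -0.24), beside 2.42% and 1.9% of all genes: Msx2 (-2.18), Atoh8 (-0.78) and Smad9 (-0.60). Of 12 Wnt response genes 4 fell and 2 rose in the Wls mutant (median -0.39 against -0.01), with Notum at -1.74, Lef1 at -0.88 and Tcf7 at -0.85 among those that fell and Sp5 at 1.98 and Lgr5 at 1.05 those that rose. In the sorted cells 1 fell, Lef1 (-1.31), and 2 rose, Lgr5 (2.14) and Nkd2 (0.98), with a median of 0.16. Both counts are at or below the shares over all genes, 15.6% lower and 39.3% higher (median 0.53), and after subtraction none of 6 tested passed. By size, the log2 fold changes of the 4 T-box genes in the Wls mutant lay between those of Lef1 and Notum.

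Marker lists moved with the groups in the sorted cells as well. Cartilage markers summed to 5900, 3680 and 2850 CPM in controls 1, 2 and 3 and to 631 and 1480 CPM in the mutants. Tbx2, Tbx3 and Tbx5 had the same order of libraries, and Tbx4 did not, with mutant 2 above control 3. How many genes share that order was not counted. Both mutants were under all 3 controls for 25.6% of tested genes. Of 12 tested cartilage markers 7 fell and 1 rose, beside 15.6% and 39.3% of all genes. After background subtraction 2 of 9 fell and none rose, beside 0.855% of all genes called lower. Smooth muscle markers summed to 129 to 165 CPM in controls and to 1540 and 240 CPM in mutants, with 8 of 9 called higher beside 39.3% of all genes. After subtraction 1 of 6 was called higher, beside 231 of 10293 genes. Mesenchyme and fibroblast markers summed to 7640 to 11500 CPM in controls and 12600 and 14100 CPM in mutants. Both mutants were also above every control in the summed markers of endothelium (220 and 170 against 26.2 to 119 CPM), airway epithelium (91.7 and 59.4 against 26.5 to 39.6 CPM) and leukocytes (367 and 303 against 192 to 256 CPM). The same held for neurons and neural crest (639 and 788 against 385 to 580 CPM) and for thyroid, thymus and parathyroid (74.8 and 43.4 against 4.96 to 16.6 CPM). Such an order was not counted over all genes, of which 39.3% were called higher. Sums for heart muscle, skeletal muscle and mesothelium overlapped between groups. Lung bud markers were lower in both mutants (504 and 910 against 1570 to 2590 CPM). After background subtraction 1 of 7 tested leukocyte markers was called higher. None was called of 5 tested endothelium, 2 airway epithelium and 7 neuron and neural crest markers. No thyroid, thymus or parathyroid marker could be tested. The part of cell makeup in the T-box values was not tested.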

How the data were processed

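Counts per gene symbol were used as the authors deposited them, as whole numbers without normalization, 1 table for sorted cells and 1 for tracheas. Bowtie2, Cufflinks, DESeq and the mm10 build appear in the submitters' processing notes, with Trim Galore for the sorted cells only. No source used here gives the counting program, its strand setting or the gene models. Per the labels' protocols, sorted cells were amplified with SMART-Seq v4 and tracheas with Ovation v2, so each table was fitted alone.

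Each whole table was tested with edgeR 4.0.16 in R 4.3.3 (TMM scaling, default expression filter, quasi-likelihood F test). P-values were adjusted by Benjamini-Hochberg over all genes, with a threshold of 0.05. The code was tested on simulated data. There, true log2 changes of 1 were recovered in 32% of cases in the sorted design and 9% in the trachea design. Changes of 2 were recovered in 98% and 86%. Every adjusted p comes from the edgeR test unless another tool is named. CPM values carry the TMM factors. The SE comes from the fold change and F statistic. Residual degrees of freedom were 3 (sorted cells) and 1 (tracheas). Member counts ranged from 446 to 32976 per library. Replicate pairs differed by 23.4 to 184 times counting variance, and all were kept apart.

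The background, taken as even over exon length, was estimated over 4185 genes with at least 500 exon bases and at most 3 counts summed over the sorted controls. It was subtracted per kilobase of exon (GENCODE M21 basic; 22114 of 23478 symbols had a length), and genes over 3 times the background were tested again. Ratios used a pseudocount of 0.5 and exact permutation tests. Log2 CPM used a prior count of 2. Alternatives included DESeq2 1.42.0 and limma 3.58.1.

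Named genes were all 4 members, up to 5 passing genes per list with the largest change (with the most abundant where fewer than 3 passed), all tested T-box genes, genomic neighbours, and the 3 nearest genes by pattern. Members, lists and markers were chosen with earlier results of these data known.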

Additional observations from a re-analysis of the deposited data

How the results depend on the processing

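The 4 log2 fold changes stayed negative in every alternative run, and the whole-trachea calls of all 4 held with DESeq2 size factors, library totals, no filter, the DESeq2 test and limma-voom. Without 1 control trachea (values only) they ranged from -1.33 to -1.22 for Tbx2, -1.09 to -1.06 for Tbx3, -1.41 to -1.30 for Tbx4 and -1.11 to -1.04 for Tbx5. In the sorted cells the ranges without 1 library were -2.07 to -1.46 for Tbx2, -1.93 to -1.02 for Tbx3, -1.61 to -0.62 for Tbx4 and -1.44 to -1.19 for Tbx5. Background subtraction, which also limits the genes tested and scaled, ended the calls of Tbx2 (-1.40) and Tbx3 (-0.98). After it, leaving out 1 library gave -1.68 to -1.13 for Tbx2, -1.42 to -0.63 for Tbx3, -1.15 to -0.25 for Tbx4 and -0.94 to -0.81 for Tbx5. A background rate 1.5 times as high ended the call of Tbx5 (-0.83). These subtracted alternatives were chosen after seeing the data.

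With the replicate block Tbx2 was at -1.93 (adjusted p = 0.052), Tbx3 at -1.67 (0.055), Tbx4 at -1.38 (0.071) and Tbx5 at -1.38 (0.052), with 0 genes called lower and 4 higher by edgeR (9833 at an unadjusted p under 0.05). That fit leaves 1 residual degree of freedom. Same-numbered mutants and controls, each centred on its group mean, correlated at -0.30 and -0.22 over 11127 genes. With 2 mutants the centred values mirror each other, so this check cannot tell whether the numbers pair the libraries.

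Counts of called genes moved more. Of 3381 lower and 8507 higher calls in the sorted cells, library totals gave 1247 lower and 9139 higher, scaling from genes above the background 975 lower and 9659 higher (median of all genes 0.87), subtraction 88 lower and 231 higher, and leaving out 1 library 1521 to 3191 lower and 2074 to 8024 higher, fewest without mutant 1 (without mutant 2, 4638 higher). With this scaling Tbx2, Tbx3, Tbx4 and Tbx5 were at -1.40, -1.07, -0.70 and -0.96, and the calls of Tbx2, Tbx3 and Tbx5 held. After subtraction, 1 library fewer gave 0 to 84 lower and 0 to 254 higher by edgeR. Lower calls numbered 0 without mutant 1, control 1 or control 3 (2511, 1789 and 1898 genes at an unadjusted p under 0.05), 5 without control 2 and 84 without mutant 2, and the higher rate 58 lower. In the tracheas 382 lower and 300 higher calls became 152 and 104 with the DESeq2 test, and 258 and 179 with library totals.

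Differences of within-library ratios without 1 library ranged from -0.47 to -0.14 for Tbx2/Tbx3, -0.92 to -0.53 for Tbx2/Tbx4, -0.58 to -0.25 for Tbx2/Tbx5, -0.55 to -0.29 for Tbx3/Tbx4, -0.45 to 0.21 for Tbx3/Tbx5 and -0.05 to 0.67 for Tbx4/Tbx5, so the last 2 had no stable direction (Tbx3/Tbx5 reversed without mutant 1 and, at 0.03, without control 1, and Tbx4/Tbx5 without mutant 2). Subtraction moved Tbx2/Tbx3 to -0.39 and Tbx2/Tbx5 to -0.51. The cause was not tested where calls or counts changed.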
